A study of Harpegnathos saltator with 27 samples.

Results

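Antennae of orco mutant and WT pupae of the ant Harpegnathos saltator were compared at 25 days after puparium formation (D25), the last pupal stage sampled. The comparison used 7 of the 27 bulk RNA-seq libraries of the series: the 3 mutant libraries of this stage and the 4 WT libraries of this stage, chosen by their labelled genotype and age. Genes of the odorant receptor (HsOr) family were set aside, and 10726 of the 14030 other genes were tested, since 3304 had a mean count under 10 over the series. The mutant libraries are labelled orco_mutant and the WT libraries wt. The labels give neither zygosity nor caste nor the number of antennae in a library, and all the libraries held polyadenylated RNA of whole antennae, for which the labels give no treatment. The study asked what happens to the antenna of an ant when olfactory neurons develop without Orco.

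Orco is the obligate coreceptor of insect odorant receptors. Each olfactory receptor neuron carries the receptor complex on a sensory cilium, the outer dendrite that lies inside a cuticular sensillum, and its proteins reach the cilium by intraflagellar transport (IFT) along microtubules. Support cells build the sensillum around the neuron, and the antenna also holds glia, epidermis and the muscles of its basal segments. Mechanosensory and ionotropic receptor neurons share the ciliary transport machinery but work without Orco. The gene roles given below are known mainly from Drosophila or vertebrates.

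Values of single libraries are normalized counts, that is, read counts divided by a size factor for the library. They are given in the order replicates 1 to 3 for mutants and 1 to 4 for WT. Differences are log2 fold changes of mutant over WT with their standard error (SE), and a gene was called when its adjusted p in edgeR's quasi-likelihood test was under 0.05. The test took the spread between libraries from all 27 libraries in 8 groups of genotype and stage, and not from the D25 libraries alone. The labels do not say whether the libraries of a genotype came from separate animals, so this spread may be technical.

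HsOrco itself had 464, 364 and 237 normalized counts in the mutants, against 1960, 6027, 4514 and 2603 in WT (log2 fold change -3.42 ± 0.51, edgeR adjusted p = 0.00012). The mutant libraries held 45716062 to 52275933 counts on genes, and the WT libraries 8324206 to 47957602. All 3 mutants belonged to sequencing batch 3, whereas WT replicates 1 to 3 belonged to batch 1 and WT replicate 4 alone to batch 3. WT replicate 4 stood apart from the other WT libraries, with correlations of log counts across genes of 0.83 to 0.92, against 0.91 to 0.93 among WT replicates 1 to 3 and 0.98 to 0.99 among the mutants. A single gene without a symbol (LOC105189609) took 34.1 to 40.4% of the counts in mutants and 20.3 to 32.4% in WT. The comparison was therefore also run with batch as a term and in batch 3 alone, where WT is 1 library assumed to vary as the other groups do, and the adjusted p with batch as a term is given beside each call that it ended.

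At this stage 572 genes outside the HsOr family (5.33%) were higher and 951 (8.87%) lower in the mutants by edgeR's test. With batch as a term 292 (2.72%) were higher and 348 (3.24%) lower, and 170 of the higher and 279 of the lower genes were called by both models. Batch 3 alone gave 632 higher (5.89%) and 734 lower (6.84%), and 570 of the 572 and 836 of the 951 genes kept their sign there. The batch 3 fit reuses 4 of the 7 libraries. In 550 of the 572 and 617 of the 951 genes, every mutant library lay on one side of every WT library. For these genes the sign in batch 3 was largely fixed beforehand, so the kept signs are not an independent check. The median log2 fold change over all tested genes was 0.02. With scaling to total counts in place of TMM the median was -0.60 and the split 59 higher and 4287 lower, so all differences below are relative to the bulk of genes. Among called genes named below, the signs of Rop, da, Mlc-c, Tsf2, Nrx-IV, Atg18a and P58IPK turned with that scaling. Some genes that were not called, such as BBS8 and TTLL5, also changed sign. Without WT replicate 4 the counts were 1638 and 2040. Leaving out WT replicate 1, 2 or 3 gave 207 and 454, 498 and 861, or 220 and 421, and leaving out mutant replicate 1, 2 or 3 gave 171 and 277, 191 and 311, or 220 and 405. Of 118 called genes named below, 49 were called in each of these 7 fits.

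Genomic span moved with the difference. Among the 2071 genes of the shortest of 5 groups, which span 72 to 2132 bases from first to last exon in the RefSeq annotation of the same assembly, the median log2 fold change was -0.61, with 15 genes higher and 425 lower. Among the 2070 genes of the longest group, at 14614 to 923832 bases, it was 0.50, with 223 higher and 52 lower. In batch 3 alone the medians of these groups were 0.06 and -0.08, and without WT replicate 4 they were -0.76 and 0.83. The part of span and batch in the results below was not tested.

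**Figure D1:**
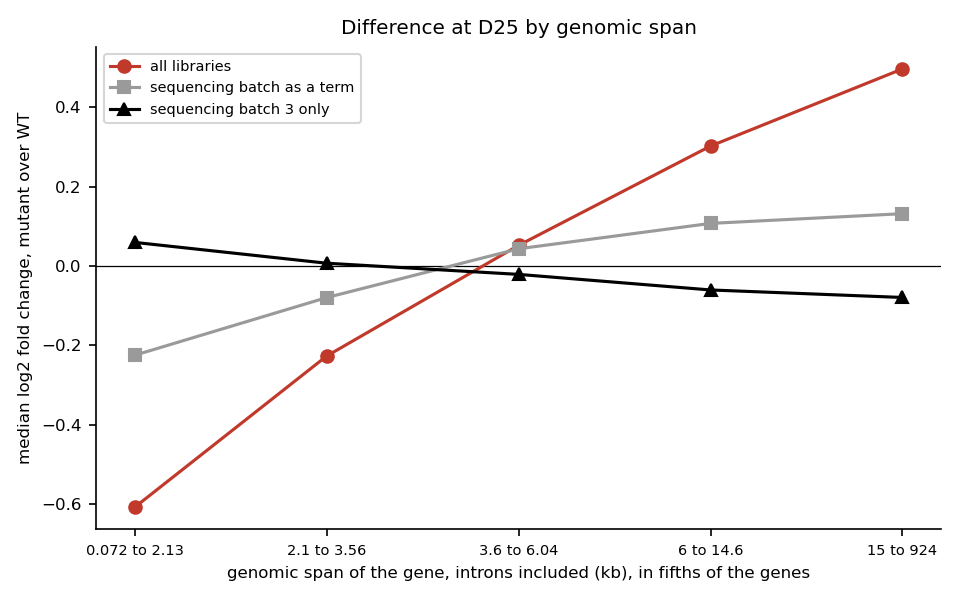
Median log2 fold change (mutant over WT at D25) of genes outside the HsOr family in 5 equal groups by genomic span, for all 7 libraries, with batch as a term and for batch 3 alone. The medians run from -0.61 in the shortest group to 0.50 in the longest with all libraries, and from 0.06 to -0.08 in batch 3 alone.

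Among genes of the sensory cilium and of transport within it, several subunits of the IFT-B complex, the BBSome subunit BBS4 and the ciliary base genes Mks1 and Cby were lower in the mutants. Of the 38 tested members of this list, 14 were lower and 3 higher, beside 8.87% and 5.33% of all tested genes, and the median log2 fold change was -0.38 beside 0.02 for all genes. The 14 lower members were also negative at D20, an earlier pupal stage compared in separate libraries, as were 861 of the 951 lower genes overall. They were negative too in batch 3 alone, which reuses 4 of the 7 libraries, as were 836 of the 951. With batch as a term 14 were lower, of which 12 were the same genes, and the median was -0.50. In bulk antennae, fewer cells of a type and less RNA per cell cannot be told apart.

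The IFT-B complex carries cargo towards the ciliary tip. Oseg5, the IFT80 subunit of this complex, had 382, 429 and 427 normalized counts in the mutants, against 2553, 1739.8, 3282 and 1406 in WT. It fell 5.46-fold (-2.45 ± 0.26, edgeR adjusted p = 7.7e-06), with -1.81 in batch 3 alone. IFT54, another subunit, had 165, 208 and 181 normalized counts in the mutants and 614, 629.5, 1085 and 565 in WT (-1.97 ± 0.21, adjusted p = 7.7e-06). In both genes every mutant library lay below the lowest WT library. The genotypes did not overlap in 24.4% of all tested genes and in 1167 of the 1523 called genes. Lack of overlap was also part of the rule for naming called list members. Ttc30 (the IFT70 subunit) had 73.8, 80.4 and 90.5 normalized counts in the mutants, against 350.4, 194, 317 and 248 in WT (-1.77 ± 0.25, adjusted p = 6.7e-05). Smaller falls were called for Oseg2 (IFT172, -1.01), IFT46 (-0.97), Ttc26 (IFT56, -0.90), IFT20 (-0.87) and IFT52 (-0.69). These 5 calls were lost in at least 1 of the fits that left out 1 library, with adjusted p up to 0.12, 0.10, 0.078, 0.068 and 0.14, and IFT52 overlapped between the genotypes, was at -0.03 in batch 3 alone and had an adjusted p of 0.29 with batch as a term. Kap3, the accessory subunit of the kinesin-II motor that drives IFT-B outward, had 687, 684 and 689 normalized counts in the mutants and 1247, 1265, 1508 and 903 in WT (-0.85 ± 0.19, adjusted p = 0.0043). By contrast nompB, the IFT88 core subunit and an abundant member of the list, was not called, at -0.20 ± 0.11 (adjusted p = 0.21), with overlapping libraries. No subunit of the IFT-A complex, which carries cargo back to the ciliary base, was called: rempA was at -0.36 ± 0.22, Oseg1 at -0.40 ± 0.20, Oseg4 at -0.30 ± 0.38, Oseg6 at -0.35 ± 0.19 and IFT43 at -0.88 ± 0.31, with adjusted p = 0.25, 0.16, 0.60, 0.21 and 0.052. With batch as a term Oseg1 was lower (-0.66, adjusted p = 0.024). No test compared the complexes with each other, and the IFT subunits other than Oseg5, Oseg2, Kap3 and nompB were named after their values were seen.

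The BBSome, a coat complex that sorts membrane proteins in and out of the cilium, had 1 subunit called among those named here. BBS4 had 263, 282 and 282 normalized counts in the mutants, against 1179.8, 731, 1002 and 948 in WT (-1.81 ± 0.23, edgeR adjusted p = 2.5e-05). Arl6, the small GTPase that recruits this coat, was at -1.59 ± 0.38 (adjusted p = 0.0072), a call that missed the threshold with batch as a term at 0.053. BBS5, another part of the coat, was at -0.73 ± 0.28 (adjusted p = 0.077, and 0.030 with batch as a term). BBS8 was not called, with 359.5, 373 and 335 normalized counts in the mutants and 281, 312, 244 and 338 in WT, and is taken up again with the D20 values. At the base of the cilium, the transition zone gene Mks1 had 163, 184 and 192 normalized counts in the mutants, against 788, 578, 648 and 632 in WT (-1.89 ± 0.23, adjusted p = 2.3e-05). Cby, which acts at the basal body, had 56.6, 45.1 and 56.3 normalized counts in the mutants and 214, 205, 455 and 129 in WT (-2.24 ± 0.41, adjusted p = 0.00078). The tubby family gene ktub, whose protein brings membrane receptors into cilia, was at -0.79 ± 0.19 (adjusted p = 0.0094, and up to 0.053 with 1 library left out). All 4 of BBS4, Mks1, Cby and ktub separated the genotypes completely, as did 1167 of the 1523 called genes and 24.4% of all tested genes. The tubulin glutamylase gene TTLL5 (0.12 ± 0.29, edgeR adjusted p = 0.79) did not. BBS4, BBS5, BBS8, Arl6, Mks1 and ktub were likewise named after their values were seen.

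**Figure D2:**
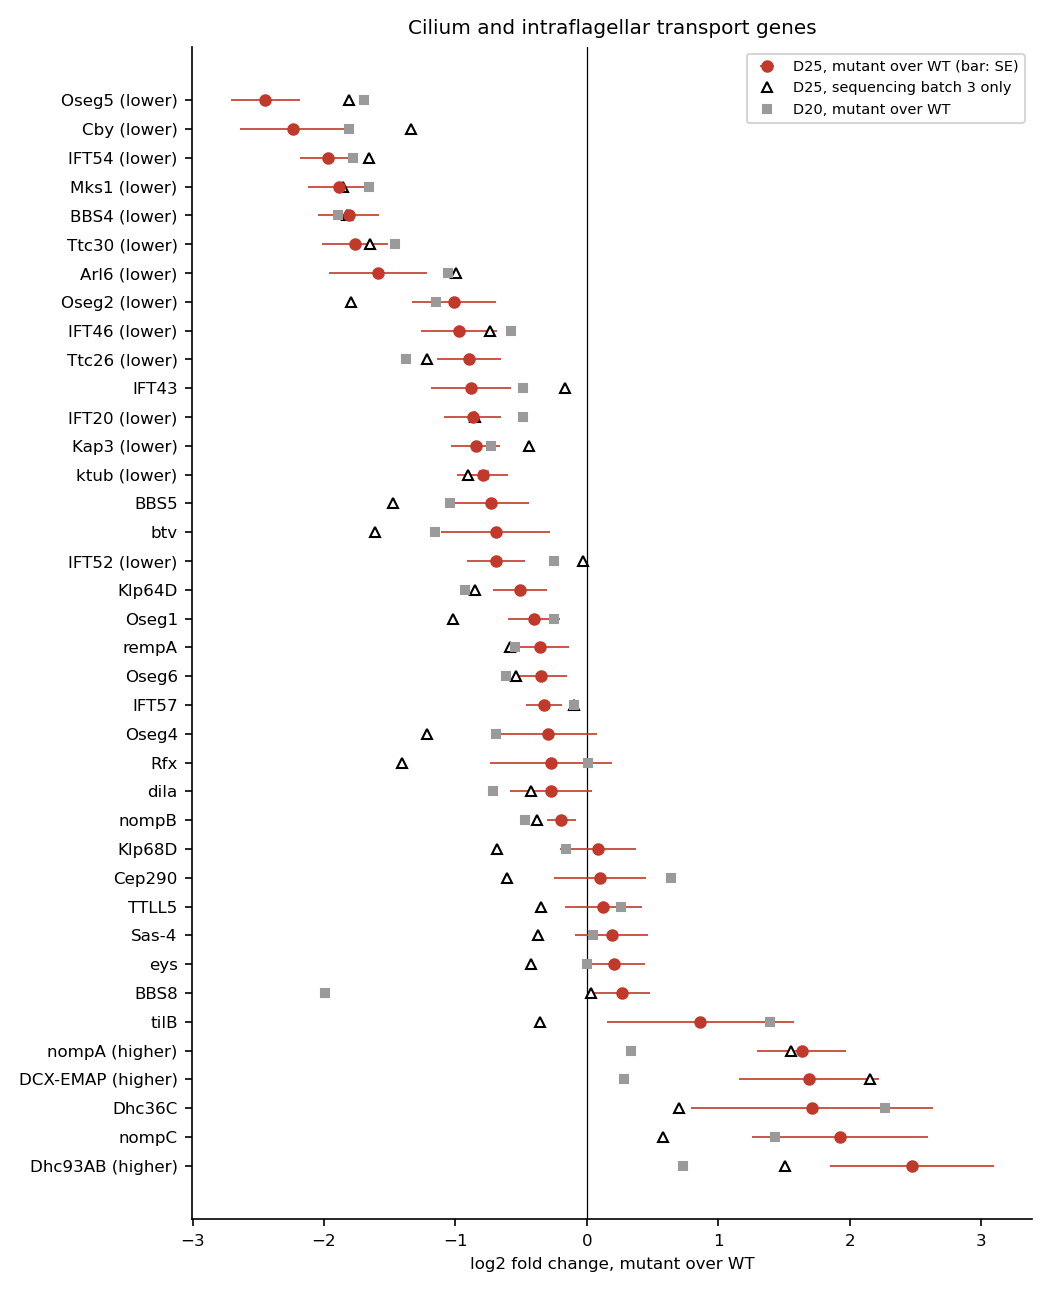
Log2 fold change (mutant over WT) of the 38 tested cilium genes at D25 with its SE, at D25 in batch 3 alone, and at D20. The 14 genes called lower at D25 lie below 0 in all 3 comparisons, whereas nompA, DCX-EMAP and Dhc93AB lie above 0 in each.

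The 3 cilium genes that rose are associated with mechanosensory organs. nompA, a cuticular linker protein that support cells of mechanosensory organs secrete around the dendrite tip, had 3324, 3652 and 2881 normalized counts in the mutants, against 495, 1523, 1117 and 1090.0 in WT (1.63 ± 0.34, edgeR adjusted p = 0.0028). DCX-EMAP, a microtubule-binding protein of mechanosensory cilia, had 3175, 3595 and 3152 normalized counts in the mutants and 647, 1578, 1140.1 and 721 in WT (1.69 ± 0.53, adjusted p = 0.034, and up to 0.10 with 1 library left out). Dhc93AB, a heavy chain of the axonemal outer dynein arm, had 222, 236 and 211 normalized counts in the mutants, against 27.7, 24.4, 27.6 and 76.2 in WT (2.47 ± 0.62, adjusted p = 0.011). All mutant libraries exceeded all WT libraries in these genes, which the rules for naming called genes asked for. Of the 1523 called genes, 1167 had no overlap in either direction, beside 24.4% of all tested genes. Each of the 3 was called by both models.

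A list of 18 axonemal genes was then written, after the values had been seen, because motile-type cilia with dynein arms occur in chordotonal neurons of insects but not in olfactory neurons. Of these, 4 were higher (Dhc93AB, kl-2, Dhc98D and Dnah3) and 2 lower in the mutants, beside 5.33% and 8.87% of all tested genes. With batch as a term 2 were higher and 2 lower. The call of Dhc93AB, given above, was known before the list was written. kl-2, an axonemal dynein heavy chain, had 87.2, 70.6 and 211 normalized counts in the mutants, against 17.8, 6.41, 0 and 29.2 in WT (3.02 ± 0.80, edgeR adjusted p = 0.015, and up to 0.078 with 1 library left out). Dhc98D (1.97) and Dnah3 (1.02), further dynein heavy chains, were called only without batch as a term, with adjusted p = 0.16 and 0.22 when it was included. Inactive (iav), a TRP channel subunit of chordotonal cilia, had 174, 119 and 183 normalized counts in the mutants and 53.4, 35.9, 18.4 and 84.3 in WT (1.67 ± 0.40, adjusted p = 0.0081). Rsph3, a radial spoke protein, went the other way with 296, 281 and 374 normalized counts in the mutants, against 1813, 1228, 1186 and 1831 in WT (-2.26 ± 0.35, adjusted p = 0.00014). Gas8, of the nexin-dynein regulatory complex, was likewise lower (-1.06 ± 0.27, adjusted p = 0.013, and up to 0.067 with 1 library left out). The axonemal list thus held members in both directions, and both lower genes were also lower at D20.

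**Figure D3:**
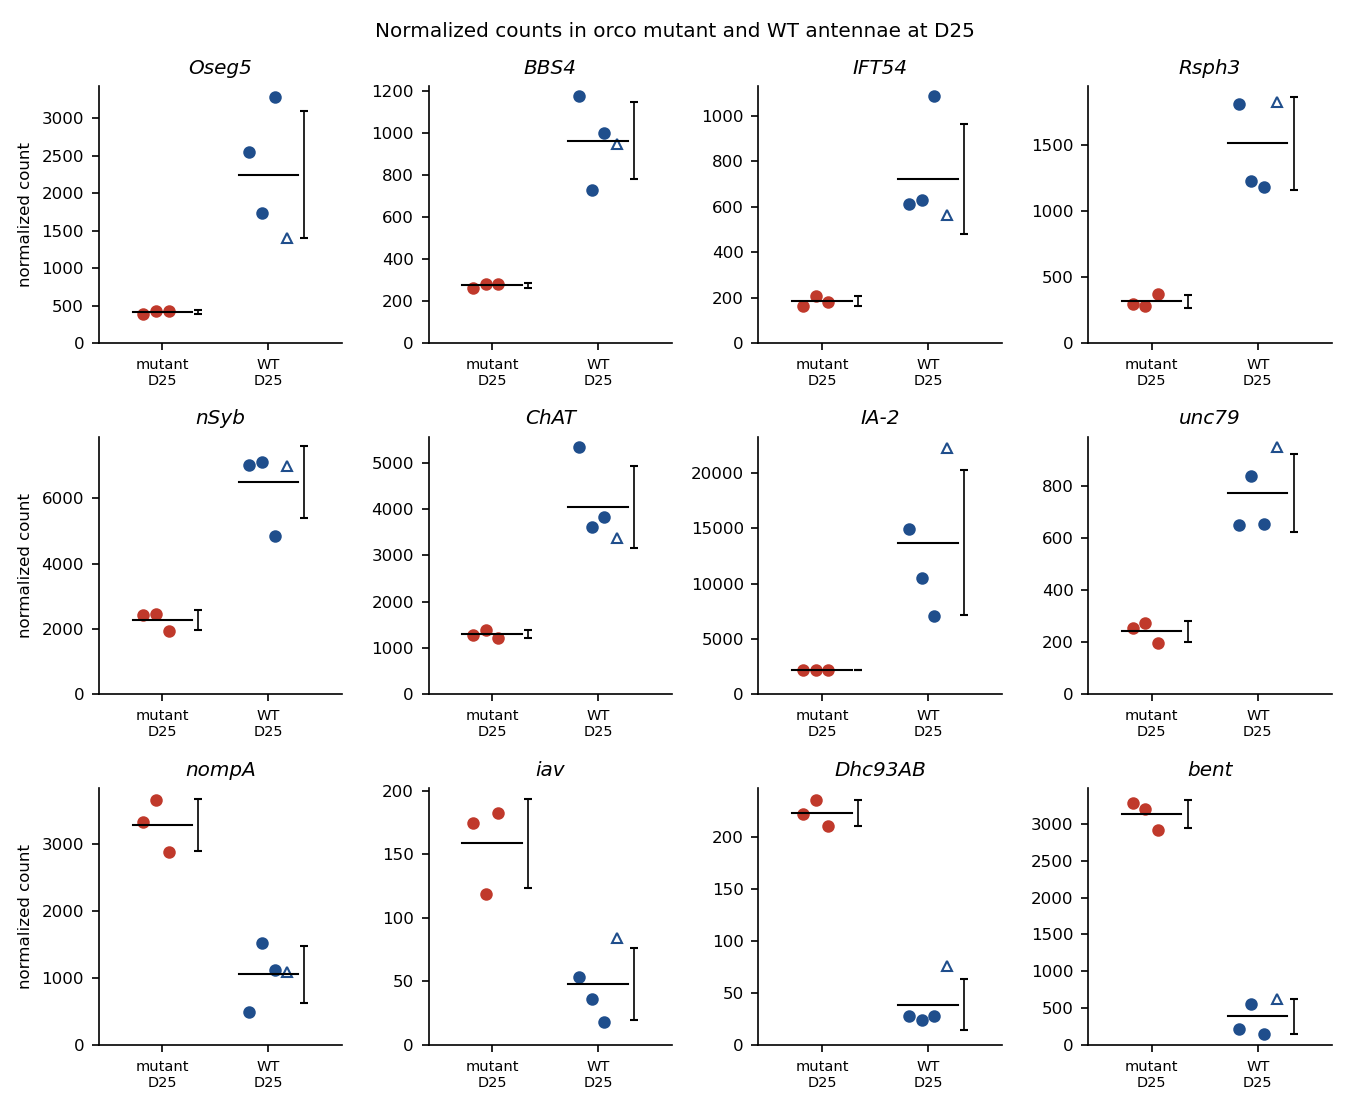
Normalized counts at D25 of 12 genes in each library, mutants on the left and WT on the right of each panel, with the mean as a line and the SD as a bar. The open triangle is WT replicate 4, the WT library of batch 3. Oseg5, BBS4, IFT54, Rsph3, nSyb, ChAT, IA-2 and unc79 lie lower in every mutant than in every WT library, and nompA, iav, Dhc93AB and bent lie higher. The genes were picked from those named in the text, where the rules for called genes asked for no overlap. Of all tested genes 24.4% had none.

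Of the 4 genes that the study uses to mark neurons, nSyb was called lower, and all 4 had a negative log2 fold change at D25 and at D20. nSyb, the vesicle SNARE of neurotransmitter release, had 2429.5, 2459 and 1919 normalized counts in the mutants, against 7019, 7126, 4836 and 6983 in WT (-1.52 ± 0.22, edgeR adjusted p = 0.00010). The RNA-binding protein gene fne (-0.44 ± 0.48, adjusted p = 0.53), the calcium sensor gene Syt1 (-0.13 ± 0.32, adjusted p = 0.79) and the transcription factor gene onecut (-1.55 ± 0.63, adjusted p = 0.089) overlapped between the genotypes. fne had 4799.6, 5146 and 4878 normalized counts in the mutants, against 10222, 4114, 1227 and 11026 in WT, so the mutants lay within the WT range. With batch as a term onecut was called beside nSyb (-2.13, adjusted p = 0.035), and in batch 3 alone onecut (-2.55, adjusted p = 0.033), fne (-1.20, adjusted p = 0.010) and nSyb were called. Among 29 tested genes of vesicle release, 2 were lower (nSyb and the synaptotagmin Sytbeta, -1.91 ± 0.34, edgeR adjusted p = 0.00068) and 2 higher (Rop at 0.55 and Dap160 at 0.65). Of all tested genes 8.87% were lower and 5.33% higher. The counts of the vesicle release list were 0 higher and 3 lower with batch as a term, and in batch 3 alone its median was -0.63. Rop, a Sec1/Munc18 protein, and the endocytic scaffold Dap160 were not called with batch as a term (adjusted p = 0.30 and 0.18), and the abundant Syt4 (-0.73, adjusted p = 0.12) was not called by either model.

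Insect olfactory neurons use acetylcholine as their transmitter, and ChAT, which makes it, was lower. It had 1282, 1389 and 1219 normalized counts in the mutants, against 5354, 3609, 3834 and 3375 in WT (-1.65 ± 0.30, edgeR adjusted p = 0.00088). ChT, the choline transporter that feeds it, was at -1.45 ± 0.48 (adjusted p = 0.045, and 0.13 with batch as a term). These were among 3 lower and 0 higher of 14 tested genes of transmitter synthesis and transport, beside 8.87% and 5.33% of all tested genes. IA-2, a tyrosine phosphatase-like protein of dense-core vesicles, had 2185, 2203 and 2132 normalized counts in the mutants and 14951, 10529, 7066 and 22272 in WT (-2.66 ± 0.43, adjusted p = 0.00025), the largest fall in the neuropeptide list. The prohormone convertase chaperone 7B2 was the other one of its 21 tested members to fall (-0.89 ± 0.18, edgeR adjusted p = 0.0019), beside 8.87% of all tested genes. In batch 3 alone the median of this list was -0.13.

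Of 29 tested channel genes, 4 were lower and 4 higher in the mutants, beside 8.87% and 5.33% of all tested genes. This balance changed with the treatment of batch. The counts were 1 higher and 3 lower with batch as a term, and 1 higher and 11 lower in batch 3 alone, where the median was -1.07, and at D20 0 were higher and 5 lower. unc79, a subunit of the sodium leak channel complex, had 255, 272 and 196 normalized counts in the mutants, against 647, 839, 653 and 949 in WT (-1.69 ± 0.31, edgeR adjusted p = 0.00088). Teh3 (-1.70 ± 0.52, adjusted p = 0.032) and Teh4 (-1.79 ± 0.50, adjusted p = 0.020), auxiliary subunits of the voltage-gated sodium channel, and the potassium channel Shab (-1.60 ± 0.49, adjusted p = 0.031) were also lower, but each lost its call in at least 1 fit that left out 1 library, and Teh4 and Shab had adjusted p = 0.089 and 0.10 with batch as a term. Of the 4 higher channel genes, 1 was called by both models and is not named here. The potassium channel Elk, another of them, was at 1.06 ± 0.35 (edgeR adjusted p = 0.043), and with batch as a term its adjusted p was 0.28. Among 29 tested receptor genes, 3 were lower and 2 higher, beside 8.87% and 5.33% of all tested genes. With batch as a term 1 was higher and 3 lower. The list median was 0.70 in all libraries and 0.02 in batch 3 alone. The nicotinic subunit gene nAChRalpha2 had 144, 159.8 and 205 normalized counts in the mutants and 562, 989, 722 and 399 in WT (-1.99 ± 0.38, adjusted p = 0.0012). The metabotropic receptor gene GABA-B-R1 (-1.56 ± 0.36, adjusted p = 0.0057) and DopEcR, a receptor for dopamine and ecdysone (-1.46 ± 0.40, adjusted p = 0.018, and up to 0.074 with 1 library left out), were likewise lower. Outside this list, the nicotinic subunit gene nAChRa7, picked by its values, had 31.6, 31.4 and 26.9 in the mutants, against 418, 228, 50.6 and 420.1 in WT (-3.24 ± 0.58, edgeR adjusted p = 0.00068). The receptors that rose were the GABA-gated chloride channel Rdl (1.338 ± 0.45, adjusted p = 0.045) and the serotonin receptor 5-HT2B (1.52 ± 0.39, adjusted p = 0.012), of which Rdl was not called with batch as a term (adjusted p = 0.36).

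Transcription factor and RNA-binding genes of the neuron-wide list held 5 higher and 1 lower of 37 tested members, beside 5.33% and 8.87% of all tested genes. With batch as a term 2 were higher and 1 lower. The list median was 0.78 in all libraries and 0.11 in batch 3 alone. The zinc finger gene scrt, expressed across developing neurons in the fly, was the lower one, with 64.2, 66.7 and 42.4 normalized counts in the mutants, against 550.3, 178, 91.9 and 211 in WT (-2.18 ± 0.53, edgeR adjusted p = 0.0087, and up to 0.051 with 1 library left out). The homeobox gene C15, which patterns the distal antenna and leg in the fly, had 482, 455 and 365 normalized counts in the mutants and 75.2, 64.1, 69.0 and 152 in WT (2.24 ± 0.39, adjusted p = 0.00051). C15 was the only one of the 5 higher members called by both models. so (1.92), dsx (1.27) and da (0.62), which act in eye and appendage development, sexual differentiation and neurogenesis, were called without the batch term and had adjusted p = 0.16, 0.15 and 0.17 with it. Outside the lists, the bHLH gene Fer1, picked by its values, had 242, 186 and 206 normalized counts in the mutants, against 1087, 1421, 584 and 1454 in WT (-2.44 ± 0.34, edgeR adjusted p = 5.1e-05). The homeobox gene unpg, picked likewise, was at -2.82 ± 0.72 (edgeR adjusted p = 0.012). Its call was lost without mutant replicate 1 and without mutant replicate 3.

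Few neurite genes were called. The microtubule-binding protein tau was higher (1.28 ± 0.30, edgeR adjusted p = 0.0075), with 4009.6, 4221 and 3972 normalized counts in the mutants and 1031, 2179.6, 1393 and 2085 in WT. Kinesin light chain (Klc), a motor subunit of axonal transport, was lower (-0.61 ± 0.16, edgeR adjusted p = 0.017). Of 33 tested cytoskeletal genes 1 was higher and 2 lower, beside 5.33% and 8.87% of all tested genes. Among 35 axon guidance and adhesion genes, the synaptic cleft protein hig was lower (-0.79, adjusted p = 0.014), and Fas3 (0.86), Sema5c (0.76) and side (1.70), all cell-surface proteins, were higher but not with batch as a term (adjusted p = 0.18, 0.26 and 0.23). In batch 3 alone this list gave 0 higher and 4 lower. In the list of olfactory signalling and perireceptor proteins, 2 of 28 tested members were called, both higher, beside 5.33% of all tested genes. Galphas, the stimulatory G protein subunit, had 1581, 1609 and 1413 normalized counts in the mutants, against 259, 619, 372 and 626 in WT (1.70 ± 0.31, adjusted p = 0.00078). The cation-chloride cotransporter Ncc69 was at 0.66 ± 0.18 (adjusted p = 0.018, and 0.051 with batch as a term). Outside the lists, Adcy2, an adenylyl cyclase picked by its values, was also higher (1.61 ± 0.34, edgeR adjusted p = 0.0033).

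**Figure D4:**
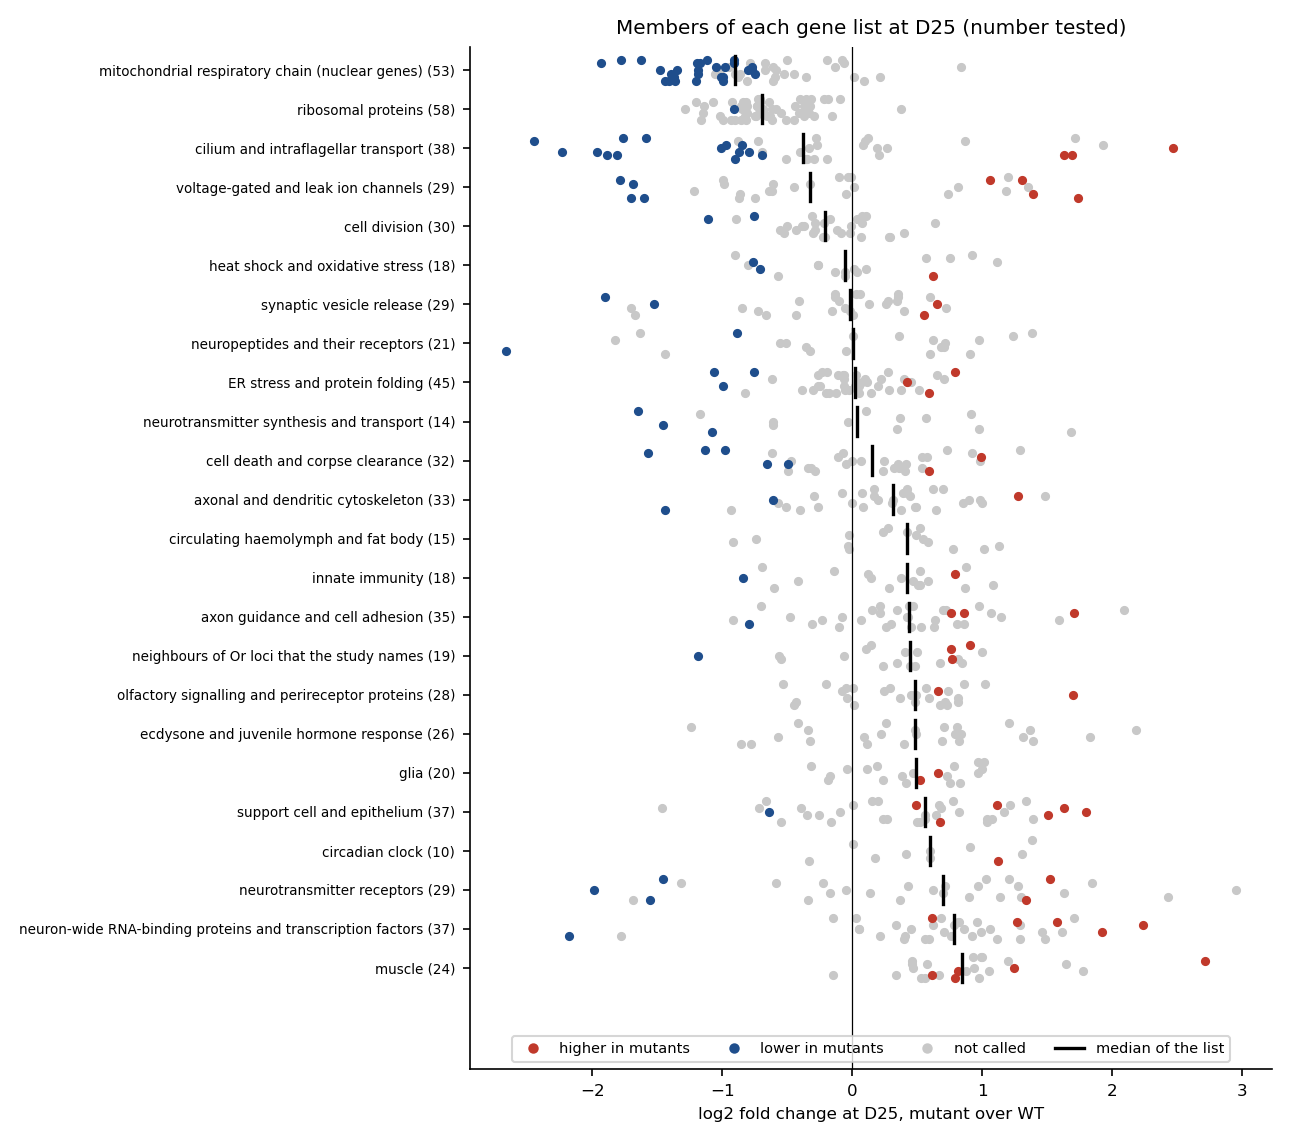
Log2 fold change (mutant over WT at D25) of every tested member of 24 gene lists, with called members in colour and the list median as a bar. The cilium list reaches from -2.45 to 2.47, the muscle list has 23 of 24 members above 0, and the respiratory chain list has 49 of 53 below 0.

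Markers of the other antennal cells gave mixed values. For the support cell markers of the study the median log2 fold change was -0.23 in all libraries and -0.54 in batch 3 alone. Of 4 support cell genes that the study uses as markers, only the glycosyltransferase gene a4GT1/2 was called. It had 235, 209 and 218 normalized counts in the mutants, against 536, 508, 629.8 and 602 in WT (-1.37 ± 0.22, edgeR adjusted p = 0.00024). The Pax gene sv (1.339 ± 0.71, adjusted p = 0.18), LOC105182650 (0.10 ± 1.05, adjusted p = 0.96) and LOC105188530 (-0.55 ± 0.73, adjusted p = 0.62) were not called, and LOC105182650 had 15231, 20225 and 11432 normalized counts in the mutants, within the WT values of 4347, 9209, 44225 and 831. The glial genes repo (0.73 ± 0.26, adjusted p = 0.057) and LOC105190781 (0.67 ± 1.02, adjusted p = 0.66) and the epithelial gene grh (-0.10 ± 0.89, adjusted p = 0.95) were not called either. The ammonium transporter gene Rh50 of ammonia-sensing neurons was at 1.02 ± 0.92 (adjusted p = 0.44), and the mechanotransduction channel gene nompC (LOC105188598) at 1.35 ± 0.52 (adjusted p = 0.076), neither of them called.

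In the wider list of support cell and epithelial genes, 6 of 37 tested members were higher and 1 lower, beside 5.33% and 8.87% of all tested genes. The giant matrix protein dpy, which ties epidermis to cuticle, had 36752, 33007 and 28528 normalized counts in the mutants, against 4333, 13576, 7728 and 12037 in WT (1.80 ± 0.44, edgeR adjusted p = 0.0098, and 0.13 with batch as a term). Su(H), the Notch pathway transcription factor, was at 1.12 ± 0.34 (adjusted p = 0.030). The septate junction genes sinu (0.67) and Tsf2 (0.49) were also higher, and the proton pump subunit Vha44 was lower (-0.64). Only 1 of the 6 higher genes, nompA, which is also on the cilium list, was called by both models. With batch as a term the adjusted p was 0.14 for Su(H), 0.078 for sinu, 0.26 for Tsf2 and 0.42 for Vha44. Among 20 glial genes, 2 were called, both higher (Ncc69, given above, and Nrx-IV), beside 5.33% of all tested genes. Nrx-IV, a septate junction adhesion protein, was at 0.52 ± 0.16 (edgeR adjusted p = 0.032, and 0.072 with batch as a term).

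Of 24 tested muscle genes, 5 were called, each higher in the mutants, beside 5.33% of all tested genes. The median log2 fold change was 0.84 beside 0.02 for all genes. The summed normalized counts of the list were 151581 to 158973 in the mutants and 46123 to 112630 in WT, the highest WT sum being that of replicate 4. Mhc, the muscle myosin heavy chain and the marker of muscle in the study, had 19769.8, 17349.5 and 16788 in the mutants and 918.5, 5904, 299 and 3771 in WT (2.71 ± 0.79, adjusted p = 0.025, and 0.097 with batch as a term). The formin Fhos (1.24), the RNA-binding protein how (0.81), alpha-actinin (Actn, 0.79, and adjusted p = 0.17 with batch as a term) and the myosin light chain Mlc-c (0.61) were called too, whereas arginine kinase (Argk1, 0.46, adjusted p = 0.20) and tropomyosin (Tm1, 0.67, adjusted p = 0.077) were not. Each of the 5 calls was lost in at least 1 fit without 1 library. Outside the list, bent, the giant sarcomere protein projectin, had 3284, 3207 and 2919 normalized counts in the mutants, against 212, 560.3, 152 and 627 in WT (2.99 ± 0.57, edgeR adjusted p = 0.0013). It was picked by its values at D25, so its separation is not an independent check of the list. At D20 the list median was 0.02. Batch 3 alone gave 7 higher, 2 lower and a median of 0.46, and without WT replicate 4 the list gave 13 higher. How much muscle each sample contained was not measured.

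Nuclear genes of the respiratory chain gave more lower calls than any other of the 24 lists plotted, and this count depended on batch. Of 53 tested members, 27 were called, each lower, beside 8.87% of all tested genes, with a median of -0.90. With batch as a term 3 were lower and 1 higher, beside 3.24% and 2.72% of all tested genes. In batch 3 alone the median was -0.03. The summed normalized counts were 71699 to 79755 in the mutants, against 101581 to 165967 in WT replicates 1 to 3 and 75982 in WT replicate 4. ND-MLRQ, a complex I subunit, had 1519.7, 1740.0 and 1880.2 normalized counts in the mutants and 4715, 3151, 5769 and 2025 in WT (-1.20 ± 0.32, edgeR adjusted p = 0.015, and 0.17 with batch as a term). ND-75, another complex I subunit, was called by both models (-0.91 ± 0.20, adjusted p = 0.0044), as was ATPsynB of the ATP synthase (-0.995 ± 0.26, adjusted p = 0.015). The abundant ATPsynbeta (-0.08, adjusted p = 0.77) and ATPsynC (-0.19, adjusted p = 0.61) were not called. Of 58 tested ribosomal protein genes, 1 was called lower, with a median of -0.70 in all libraries and a median of 0.51 in batch 3 alone.

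Of 32 tested genes of cell death and corpse clearance, 2 were higher and 5 lower, beside 5.33% and 8.87% of all tested genes, with 2 higher and 0 lower with batch as a term, and 3 higher and 1 lower in batch 3 alone. The caspase gene Dredd (-1.57 ± 0.41, edgeR adjusted p = 0.013), p53 (-0.98 ± 0.33, adjusted p = 0.048) and the autophagy gene Atg13 (-0.49 ± 0.16, adjusted p = 0.043) were lower, but none of these was called with batch as a term (adjusted p = 0.15, 0.17 and 0.33). The matrix metalloprotease Mmp2 (0.99 ± 0.32, adjusted p = 0.037) and the autophagy gene Atg18a (0.59 ± 0.19, adjusted p = 0.035) were higher in both models. Among 45 tested genes of ER stress and folding, 3 were higher and 3 lower. These included the translocon subunit Sec61alpha (0.79) and the co-chaperone P58IPK (0.42) among the higher and wbl (-0.75) among the lower, with adjusted p = 0.050, 0.21 and 0.13 with batch as a term. Hsc70-3 (BiP, 0.08) and Xbp1 (-0.25), the ER stress markers of the study, were not called. Their median log2 fold change was -0.08 in all libraries and -0.70 in batch 3 alone. Of 18 genes of heat and oxidative stress, the antioxidant regulator cnc was higher (0.62, adjusted p = 0.032), whereas Gclm (-0.76, adjusted p = 0.026) and Gclc (-0.71, adjusted p = 0.033), the subunits of the enzyme that starts glutathione synthesis, were lower, though not with batch as a term (adjusted p = 0.16 and 0.33).

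Among 30 cell division genes the mitotic kinase genes Cdk1 (-1.11 ± 0.35, edgeR adjusted p = 0.034) and aurB (-0.76 ± 0.24, adjusted p = 0.038) were lower, each missing the threshold with batch as a term (adjusted p = 0.063 and 0.068). The circadian factor Clk was the only one of 10 clock genes called (1.12 ± 0.37, adjusted p = 0.043, and 0.25 with batch as a term). Immune genes gave 1 higher and 1 lower of 18, the higher one being the complement-like Mcr (0.79 ± 0.20, adjusted p = 0.010, and 0.063 with batch as a term). None of 26 genes of ecdysone and juvenile hormone response was called by edgeR, where 6 were higher and 0 lower at an unadjusted p under 0.05, and DESeq2 called 1 higher and 0 lower. The counts were 2 higher and 1 lower with batch as a term, and 3 higher and 5 lower in batch 3 alone. None of 15 haemolymph and fat body genes was called by edgeR, where 1 was higher and 2 lower at an unadjusted p under 0.05, and DESeq2 called 0 higher and 0 lower, while batch 3 alone gave 4 higher and 0 lower. The haemolymph genes summed to 28287 to 31102 normalized counts in the mutants and 18440 to 52537 in WT. Of 19 genes next to HsOr loci, 3 were higher (LOC105182715, LOC105182245 and LOC105190442, at 0.76, 0.77 and 0.91) and LOC105192289 was lower (-1.19), and the higher calls had adjusted p = 0.061, 0.096 and 0.19 with batch as a term. Over all tested genes the shares called by edgeR were 5.33% higher and 8.87% lower. Counting ignored strand, so reads of overlapping or antisense neighbours cannot be told apart.

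The largest falls among genes called by both models, with no overlap between the genotypes and a mean of at least 100 normalized counts in the higher one, belonged mostly to genes without a symbol. LOC105189380 had 302, 169.6 and 301 normalized counts in the mutants, against 20729, 29896, 69109 and 3669 in WT, a 120.0-fold lower level (-6.91 ± 1.18, edgeR adjusted p = 0.00044). Even WT replicate 4, the lowest of its group, held 3669 normalized counts of this gene. LOC109504413 was nearly undetected in the mutants, at 2.88, 1.96 and 0.816 normalized counts, against 115, 127, 27.6 and 169 in WT (-5.86 ± 0.59, adjusted p = 3.2e-06). LOC112590016 had 12.5, 18.6 and 4.89 in the mutants and 344, 373, 225 and 287 in WT (-4.69 ± 0.67, adjusted p = 6.8e-05). Both were also lower at D20. Further falls were LOC105191600 (-4.04), G2015 (-3.58), LOC105184100 (-3.57), LOC105182914 (-3.23), LOC105186913 (-3.14) and LOC105182332 (-3.11). Among genes with a symbol, the activin ligand Actbeta had 27.8, 24.5 and 18.8 normalized counts in the mutants, against 344, 392.3, 110.3 and 853 in WT (-4.18 ± 0.82, adjusted p = 0.0016). The follistatin-like gene Fstl5 had 967, 1168 and 769 in the mutants and 5519, 4757, 3862 and 5029 in WT (-2.31 ± 0.47, adjusted p = 0.0024). The ADAMTS-like gene nolo (-2.29, adjusted p = 0.013) and the acyl-CoA binding gene Acbp1 (-1.999, adjusted p = 0.0032) were lower as well.

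By the same rule the largest rise was in LOC105187395, with 207, 77.4 and 437 normalized counts in the mutants, against 1.98, 16.7, 0 and 2.16 in WT (5.33 ± 1.13, edgeR adjusted p = 0.0038). It varied widely among the mutants, and the rule required each of them to lie above each WT library. Smaller rises among genes without a symbol were LOC105184158 (2.63), LOC105188402 (2.54), LOC105182743 (2.47), LOC105181891 (2.46), LOC105188907 (2.46) and LOC105191243 (2.43). Of these, LOC105182743, LOC105181891 and LOC105188402 lost their call in some fits without 1 library. The growth factor gene Idgf4, a chitinase-like secreted protein, had 1445, 1899 and 1095 normalized counts in the mutants, against 190.0, 469, 386 and 108 in WT (2.36 ± 0.50, adjusted p = 0.0031). rosy (ry), the xanthine dehydrogenase of purine breakdown, had 2876, 2877 and 4153 in the mutants and 724, 1492, 763 and 468 in WT (1.93 ± 0.36, adjusted p = 0.0011). The rule required both Idgf4 and ry to separate the genotypes in every library. Both were also called in each fit without 1 library.

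The D20 comparison used separate libraries, with 3 mutants and 4 WT, and shares no library with D25. Its batches were split in part as at D25, since mutant replicates 2 and 3 and WT replicate 4 belonged to batch 3 and the others to batch 1, so values common to both stages can carry the same batch difference. There 83 genes outside the HsOr family (0.774%) were higher and 212 (1.98%) lower in the mutants. Of the genes called at D25, 151 were lower and 13 higher at both stages, 1 was higher at D25 and lower at D20, and 2 were lower at D25 and higher at D20. Of the 14 cilium genes lower at D25, 10 were lower at D20 and 10 at D20 with batch as a term. At D20 BBS4 was at -1.89, IFT54 at -1.78, Mks1 at -1.65 and Oseg5 at -1.69. IA-2 (-3.24), Fstl5 (-3.16), nSyb (-1.94), ChAT (-1.91) and Rsph3 (-2.53) were likewise called lower at D20. nompA (0.33, edgeR adjusted p = 0.75), bent (-0.47, adjusted p = 0.79), C15 (0.21, adjusted p = 0.87) and Galphas (-0.14, adjusted p = 0.89), which were higher at D25, were not called at D20. Whether their differences at D25 and D20 were unequal was tested in the same model, and none of these 4 passed.

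The difference at D25 departed from that at D20 in 5 genes (0.0466%) by edgeR's test of the interaction, and they are named here after their values were seen. BBS8, a BBSome subunit, had 359.5, 373 and 335 normalized counts in D25 mutants, against 281, 312, 244 and 338 in D25 WT, and 95.1, 74.8 and 70.6 in D20 mutants, against 343, 294, 368 and 252 in D20 WT. The difference of log2 fold changes was 2.26 ± 0.31 (adjusted p = 0.0016). BBS8 was thus lower in mutants at D20 (-1.995 ± 0.23, adjusted p = 3.2e-05) and not called at D25, whereas BBS4, of the same complex, was lower at both stages. Fdx2, a mitochondrial ferredoxin, had 645, 682 and 668 normalized counts in D25 mutants, against 986, 564, 933 and 1203 in D25 WT, and 2485, 3659 and 2274 in D20 mutants, against 773, 596, 789 and 471 in D20 WT. It was higher in mutants at D20 (2.07 ± 0.23, adjusted p = 2.7e-05) and not called at D25, with a difference of -2.54 ± 0.33 (adjusted p = 0.0016). LOC105189017 had 34.5, 47.1 and 44.9 normalized counts in D25 mutants, against 1279, 331, 110.3 and 1128 in D25 WT, and 1975, 3201 and 1203 in D20 mutants, against 965, 672, 993 and 331 in D20 WT. It was lower in mutants at D25 and not called at D20 (1.496 ± 0.54, adjusted p = 0.15), and the difference between the stages was -5.59 ± 0.84 (adjusted p = 0.0042). The other two were LOC105183630 (1.30 ± 0.24, adjusted p = 0.038) and LOC105187445 (-6.89 ± 1.26, adjusted p = 0.038). LOC105189380, the largest fall at D25 by the rule above, had 467, 359.7 and 146 normalized counts in D20 mutants, against 316, 176, 543 and 487 in D20 WT. Its test of the difference missed the threshold (-6.67 ± 1.35, adjusted p = 0.053).

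**Figure D5:**
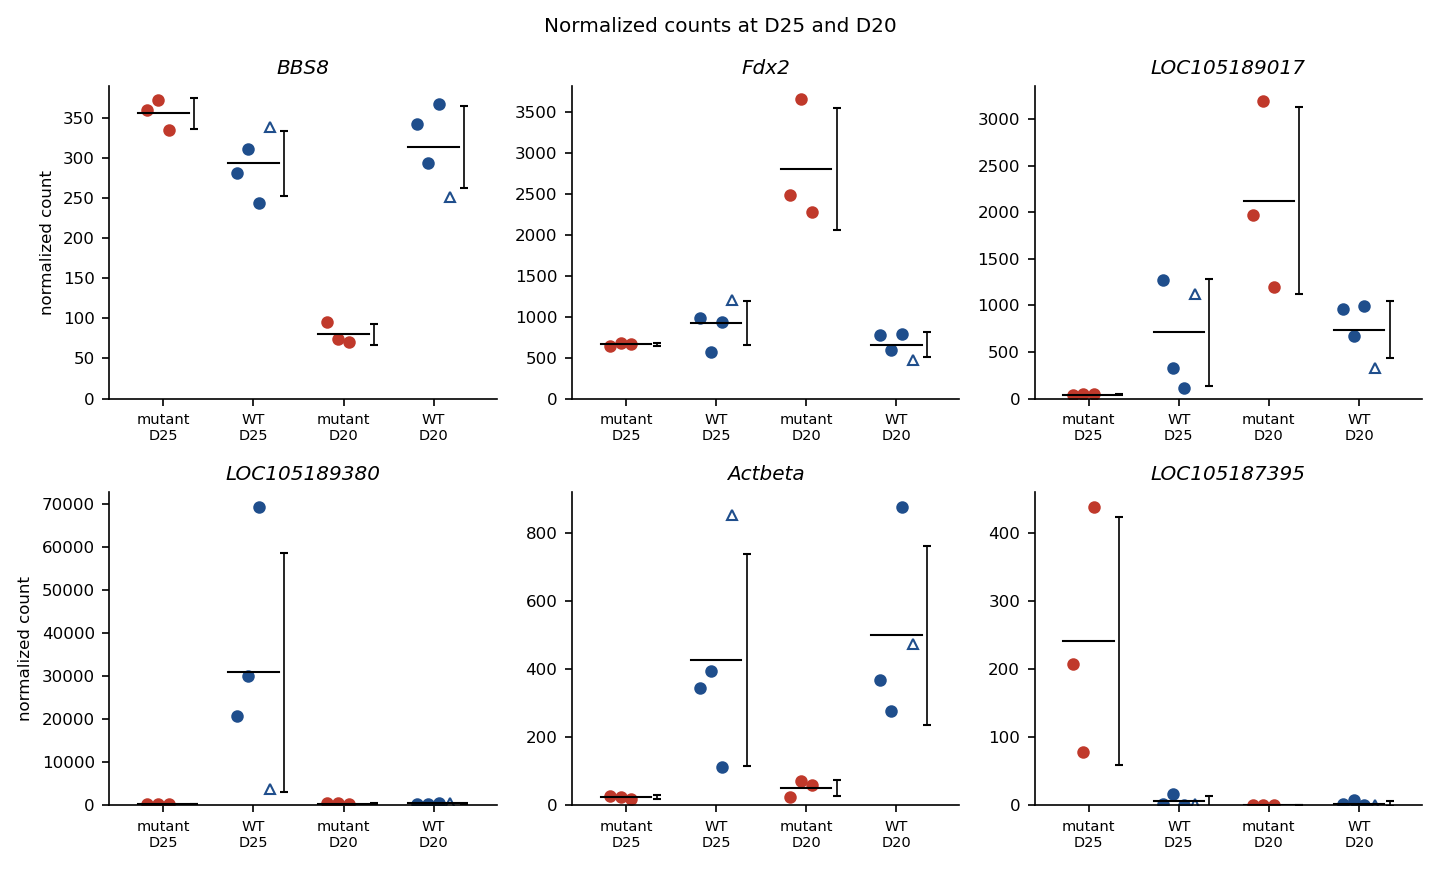
Normalized counts of 6 genes at D25 and at D20, with mutants left of WT within each stage, the mean as a line, the SD as a bar and WT replicate 4 as an open triangle. BBS8 and Fdx2 separate the genotypes at D20 and overlap at D25, LOC105189380 the reverse, Actbeta is lower in mutants at both stages, and LOC105189017 lies below WT at D25 and above WT at D20 in each mutant.

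Outside the HsOr family, the other chemoreceptors gave 4 higher and 1 lower of 19 tested ionotropic receptor genes and 1 higher of 9 tested gustatory receptor genes, beside 5.33% and 8.87% of all tested genes. HsIr8a, a coreceptor, was higher (log2 fold change 1.78, edgeR adjusted p = 0.0021) and HsIr76b, another coreceptor, was lower (-1.73, adjusted p = 0.0036), while the 2 HsIr25a coreceptor genes were not called (1.27 and 1.56, adjusted p = 0.29 and 0.099). HsGr2 had 307, 324 and 325 normalized counts in the mutants, against 29.7, 158, 36.8 and 5.95 in WT (2.44 ± 0.82, edgeR adjusted p = 0.047). It was called in 2 of the 7 fits without 1 library, where its log2 fold change was 2.04 to 3.83 and its adjusted p up to 0.13, and in batch 3 alone it was at 5.69.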

How the data were processed

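PolyA RNA of antennae was sequenced in 27 libraries, of which 3 orco mutant and 4 WT libraries at D25 were compared here. The authors mapped reads with STAR 2.6.1d, trimmed 1 batch with longer reads, and deposited unstranded counts of reads per gene, which were used for every test. The authors also deposited DESeq2 1.34.0 normalized counts, a signal of counts divided by size factors, which gave the values of single libraries. These were checked against size factors recomputed from the counts and agreed within an absolute difference of 5e-07.

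All 27 libraries entered 1 model of 8 groups of genotype and stage in edgeR 4.0.16 (R 4.3.3), with TMM scaling, a quasi-likelihood test and Benjamini-Hochberg adjustment over the 11086 genes that averaged 10 or more counts over the series. Interactions of genotype with stage were tested in the same model. Rows for unmapped, multimapping, no-gene and ambiguous reads were left out of library sizes. Unmapped reads made up 3.34 to 14.8% of mutant and 3.73 to 30.6% of WT libraries at D25.

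The libraries, gene lists and tests were chosen with earlier results of these data known, and 31 lists were written from gene roles or hold the study's markers. Genes named were the study's markers, up to 5 called and 2 uncalled members with the highest mean counts per list, and up to 12 per direction with the largest changes in both models and no overlap, over all genes and over genes with a symbol. Not all of these are printed, 1 item is not reported here, and others are said to have been named after their values were seen. Symbols came from the RefSeq table of assembly Hsal_v8.6, which gave one for 4107 of 14407 gene IDs and held a span for 10347 of the 10726 tested genes. Alternatives were DESeq2 1.42.0, its size factors, total-count scaling, other filters, batch as a term, batch 3 alone, a replicate block, the D25 libraries alone, and leaving out each library.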

Additional observations from a re-analysis of the deposited data

Results flagged for a closer look

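In 10 of 147 named genes, 1 WT library lay far from the other WT libraries at D25, where chance alone gives about 1 group in 20. WT replicate 4, the batch 3 library, was the far one for Dhc93AB (76.2 normalized counts), C15 (151.9), grh (5745.0) and Hsc70-3 (12989), each time the highest. WT replicate 3, the library with the fewest counts, was the highest for IFT54 (1085) and ATPsynbeta (9397) and the lowest for nSyb (4836) and hig (198). WT replicate 1 was the highest for IFT20 (932) and WT replicate 2 for LOC105187395 (16.7). All mutant libraries stayed on one side of all WT libraries in IFT54, IFT20, Dhc93AB, nSyb, C15, hig and LOC105187395, whereas grh, ATPsynbeta and Hsc70-3 were not called. The rules for naming called list members and the largest changes asked for such a separation, so it is not a check on the far library.

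In 5 genes the log2 fold change of mutant over WT at D25 departed from that at D20 by a test of the interaction in edgeR. The D25 value minus the D20 value was 2.26 for BBS8, 1.30 for LOC105183630, -2.54 for Fdx2, -5.59 for LOC105189017 and -6.89 for LOC105187445.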

How the results depend on the processing

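The counts of higher and lower genes at D25, 572 and 951, moved by more than 1.5 times under 4 settings that kept every D25 library: 59 and 4287 with scaling to total counts, 292 and 348 with sequencing batch as a term, 162 and 181 with a model of the D25 libraries alone, and 1603 and 1694 with a replicate block. Leaving out 1 library gave 171 to 1638 higher and 277 to 2040 lower genes, the highest of each without WT replicate 4. Each of these fits also moved both counts by more than 1.5 times, except that without WT replicate 2 (498 and 861). DESeq2's test gave 836 and 1421, its size factors 578 and 1033, no filter 470 and 772, edgeR's own filter 546 and 902, and batch 3 alone 632 and 734. The 5 genes with unequal differences at D25 and D20 became 43 with batch as a term, an alternative chosen after seeing the data. In 139 of 147 named genes no setting was counted as a reversal. Sign changes of genes that were not called could go uncounted. Syt1, at -0.13 with all libraries, was at 0.12 without WT replicate 4, and TTLL5, at 0.12, was at -0.35 in batch 3 alone. With scaling to total counts the log2 fold changes of the called genes Rop (-0.0847), da (-0.0031), Mlc-c (-0.0199), Tsf2 (-0.13), Nrx-IV (-0.12), Atg18a (-0.0045) and P58IPK (-0.20) turned negative, and the median of all genes was -0.60. Those of BBS8 (-0.375) and TTLL5 (-0.52), which were not called, turned negative as well. The causes of the other shifts were not tested. With the replicate block grh was at 1.62. Replicate numbers did not pair the samples: the deviations of same-numbered mutant and WT libraries correlated at -0.33, 0.098 and -0.012, so the block result is given here only.

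Mutants at D25 were all sequenced in batch 3 and 3 of 4 WT libraries in batch 1, so 1 WT library carries every comparison within a batch. WT replicate 3 had 8324206 counts on genes, the fewest at this stage, which limits low-count genes most.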
